A study of Mus musculus with 6 samples.

Results

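The genes described here are the 4 creatine kinases of the mouse (Ckm, Ckb, Ckmt2 and Ckmt1) and the 3 genes that supply creatine (Gatm, Gamt and Slc6a8). They were picked by symbol, and all 7 were found among the 54532 genes of the expression table. Their RNA was compared between 3 Wtap-CKO hearts, labelled as a conditional loss of Wtap, and 3 hearts of Wtapflox/flox mice (Wtap-flox), whose allele is flanked by loxP sites. All were hearts of mice aged 4 days, sequenced as polyadenylated RNA. WTAP belongs to the m6A writer complex, which places N6-methyladenosine on messenger RNA. No source used here gives the Cre driver, the cells it acts in or the exons removed.

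Creatine kinases move a high-energy phosphate group between ATP and creatine. In striated muscle a mitochondrial form charges creatine where ATP is made, and a cytosolic form bound near the myofibrils and calcium pumps recharges ATP where it is spent. Heart cells make little creatine themselves: it is built from arginine and glycine by GATM, methylated by GAMT, mainly in other organs, and brought in through the transporter SLC6A8. The brain-type kinase CKB is the cytosolic form of the embryonic heart and of many other cells, and the muscle type CKM takes over as cardiac muscle matures.

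Each library held between 15649028 and 18045599 reads or read pairs assigned to genes, and levels are given in FPKM (fragments scaled to gene length and library size). Wtap itself stood at 9.32, 7.75 and 9.46 FPKM in Wtap-CKO and at 7.77, 8.74 and 10.9 FPKM in Wtap-flox (log2 fold change -0.04, limma adjusted p = 0.893). This value covers the whole gene and did not separate the groups, so the libraries are named by their labels alone. Wtap-CKO 3 lay apart from the other Wtap-CKO libraries on the second principal component (20.4% of the variance), and results are given with and without it where it changes them. The 8 cardiomyocyte markers were all present, with Actc1 highest, and summed to 17916 to 21793 FPKM in Wtap-CKO and 17038 to 20699 FPKM in Wtap-flox. None of them was called, against 16.6% of all tested genes, and they did not all move in the same direction. Per the labels' protocols the replicates are independent and biological.

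In the hearts labelled Wtap-CKO the creatine kinases of mature muscle were lower and the brain type stood higher, while the genes of creatine synthesis and uptake did not pass the test in either direction. Ckmt2, the mitochondrial kinase of striated muscle, was at 0.415 of its Wtap-flox level, and Ckm was at 0.659 of it. Ckb was at 1.63 times its Wtap-flox level but missed the threshold. Of the 6 members with a mean of at least 1 FPKM, which were tested, 2 fell and 0 rose at an adjusted p below 0.05 (limma on log2(FPKM + 1), Benjamini-Hochberg over all 12568 tested genes). Ckb was the only member higher at an unadjusted p under 0.05, and 3 of 14 alternative analyses called it, limma-voom among them. At the adjusted threshold 6.69% of all tested genes were lower and 9.91% higher, 16.6% in all. In 3 of the 6 the groups did not overlap, as in 37.1% of all tested genes: 1 was higher (19.8% of all tested genes) and 2 were lower (17.3%).

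**Figure D1:**
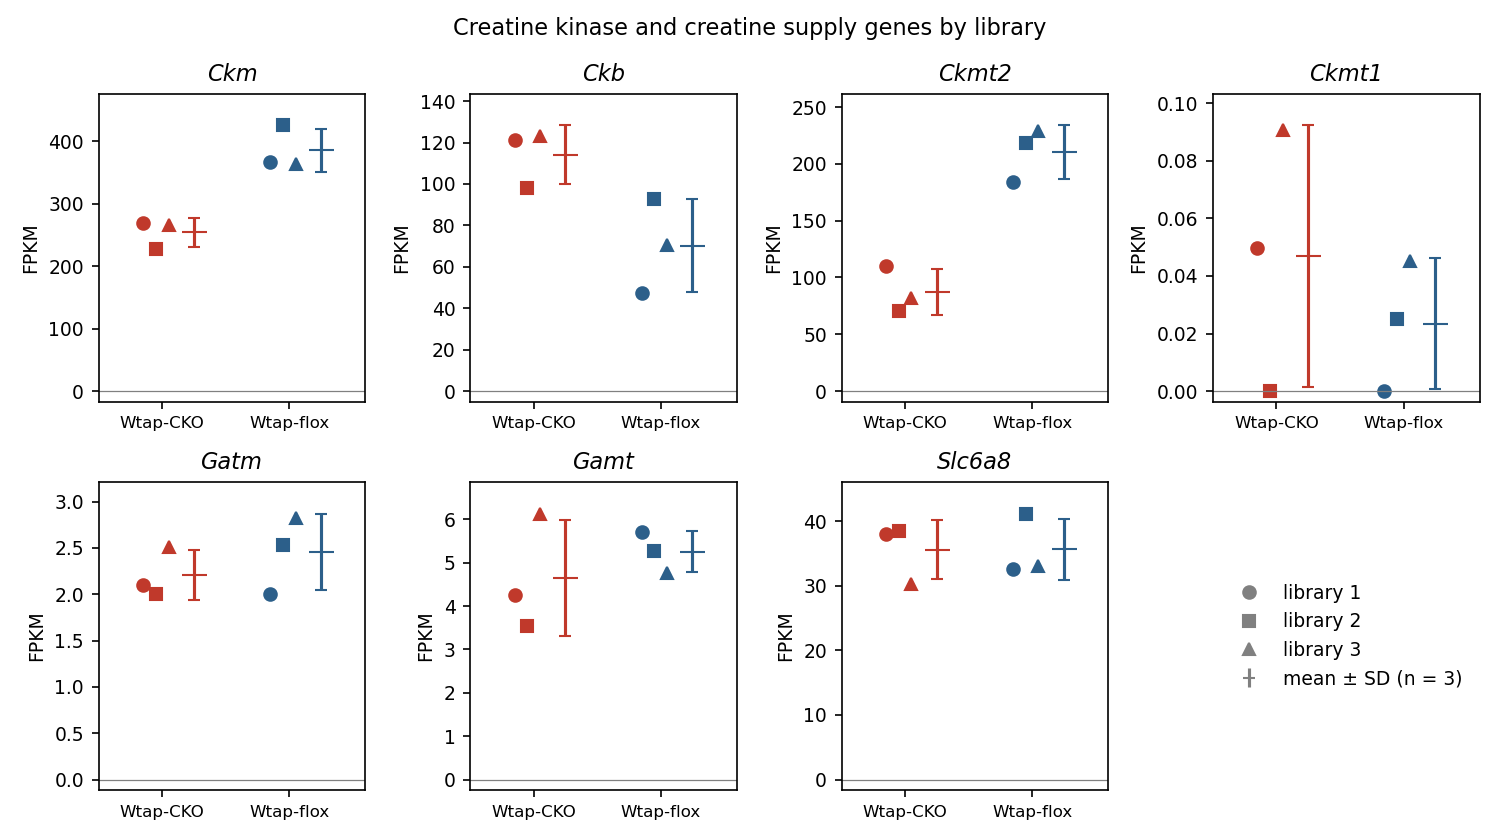
FPKM of the 7 genes in each heart library, with Wtap-CKO on the left of each panel and Wtap-flox on the right. Symbols mark libraries 1 to 3, and bars give the mean and SD of 3 libraries. The groups lie apart for Ckm, Ckb and Ckmt2 and overlap for the other 4 genes.

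Ckm (ENSMUSG00000030399, chromosome 7, 19404776 to 19422841 on the plus strand, GRCm38) encodes the cytosolic muscle-type kinase. It stood at 268, 228 and 265 FPKM in Wtap-CKO and at 367, 425 and 364 FPKM in Wtap-flox. All 3 Wtap-CKO hearts were therefore below the lowest Wtap-flox heart. The means were 254 ± 22.6 FPKM in Wtap-CKO and 385 ± 34.5 FPKM in Wtap-flox (SD, n = 3 each), and the log2 fold change was -0.60 (SE 0.16, 95% interval -0.96 to -0.24, adjusted p = 0.0344, limma). By mean FPKM Ckm ranked 131 among protein coding genes in Wtap-CKO and 60 in Wtap-flox. It rested on 10250 to 19680 reads per library, so counting error was small beside the spread between hearts. Leaving out any Wtap-flox library, or Wtap-CKO 1 or 2, ended the call (adjusted p of 0.0705 to 0.146), while without Wtap-CKO 3 it held (adjusted p = 0.0306). The log2 fold change was between -0.64 and -0.52 in these fits, and the call also ended without the filter on low genes (adjusted p = 0.0699).

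The 250 bases before the RefSeq start of Ckm (chr7:19410844-19411093, plus strand, GRCm38.p6) are printed because this gene, Ckmt2 and Ckb moved unequally. They are given 5′ to 3′ with matches to 6 motifs in capitals. The motifs, searched on both strands, were the E-box CANNTG of myogenic and other basic helix-loop-helix factors, the nuclear receptor half-site AGGTCA, the TATA box TATAAA, the CCAAT box CCAAT, and the MEF2 and CArG motifs. Variants that depart from these patterns were not searched, so a window without a match may still hold a variant site. This window holds a single E-box and no other match, and E-boxes occur in 66.2% of 32851 mouse promoter windows of the same length. Of the synthesis genes, which were not called, Gatm has 1 E-box in its window and Gamt 0. Whether any motif match bears on the RNA levels was not tested.
Ckm: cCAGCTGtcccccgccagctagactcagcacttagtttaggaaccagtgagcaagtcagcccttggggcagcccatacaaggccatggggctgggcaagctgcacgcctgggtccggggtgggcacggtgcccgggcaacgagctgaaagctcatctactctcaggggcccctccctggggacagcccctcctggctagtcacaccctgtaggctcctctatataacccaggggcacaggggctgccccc
The gene model of the expression table begins upstream of this RefSeq start.

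Ckb (ENSMUSG00000001270, chromosome 12, 111669361 to 111672338 on the minus strand) encodes the brain-type cytosolic kinase. It stood at 121, 97.9 and 123 FPKM in Wtap-CKO and at 47.4, 92.6 and 70.6 FPKM in Wtap-flox. The lowest Wtap-CKO heart was only slightly above the highest Wtap-flox heart, and the Wtap-flox hearts were spread widely. The means were 114 ± 14.1 FPKM in Wtap-CKO and 70.2 ± 22.6 FPKM in Wtap-flox (SD, n = 3 each), with a log2 fold change of 0.74 (SE 0.24, 95% interval 0.20 to 1.27, adjusted p = 0.0644, limma). Ckb passed the threshold without Wtap-flox 2 (log2 fold change 0.96, adjusted p = 0.036), with limma-voom on reads recovered from the FPKM values (adjusted p = 0.0289) and when genes averaging under 5 FPKM were dropped (adjusted p = 0.0485). These were 3 of 14 alternatives. It missed the threshold without a filter (limma adjusted p = 0.167), with a replicate block (0.0845) and with each library scaled to a fixed total (0.0879). With any other library left out, the limma adjusted p was 0.0679 to 0.171. Without Wtap-flox 1 the log2 fold change was 0.48. With each library scaled to a fixed total (TPM), Ckb stood at 333, 273 and 317 TPM in Wtap-CKO and at 150, 278 and 208 TPM in Wtap-flox, so that the groups then overlapped.

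The window before the RefSeq start of Ckb (chr12:111672339-111672588, minus strand, GRCm38.p6) holds 2 CCAAT boxes and a TATA box that lies within a match to the MEF2 motif. The MEF2 match runs from base 29 to base 20 before the start. CCAAT boxes are in 33.8%, TATA boxes in 12.4% and MEF2 matches in 2.92% of the promoter windows, and this window has no E-box.
Ckb: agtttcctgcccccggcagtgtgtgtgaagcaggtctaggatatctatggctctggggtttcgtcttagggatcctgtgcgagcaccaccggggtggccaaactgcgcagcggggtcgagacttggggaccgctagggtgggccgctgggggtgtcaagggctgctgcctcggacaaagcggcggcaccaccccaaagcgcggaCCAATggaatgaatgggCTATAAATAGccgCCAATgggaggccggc

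Since Ckb is also made outside muscle cells, the markers of other cell types were set beside it. The 7 macrophage markers summed to 64.5 to 126 FPKM in Wtap-CKO and 42.6 to 49.9 FPKM in Wtap-flox, with Lyz2 highest and none at 0. Of the 6 tested, 2 were higher (C1qa and C1qb, log2 fold changes of 0.78 and 0.94, limma adjusted p = 0.0336 and 0.0148). These 2 are named because the count was small. Beside the marker counts of this paragraph, 9.91% of all tested genes were higher and 6.69% lower. C1qa missed the threshold without any 1 of Wtap-flox 1, 2 or 3 or Wtap-CKO 1 or 3, and C1qb without Wtap-flox 1 or 2. The 7 smooth muscle and pericyte markers, led by Acta2, summed to 744 to 973 FPKM in Wtap-CKO and 545 to 785 FPKM in Wtap-flox, with 1 of 6 tested higher. Most of this sum was Acta2, with means of 719 FPKM in Wtap-CKO and 509 FPKM in Wtap-flox (log2 fold change 0.52, not called). The called gene was Cnn1 (1.11), which lost its call without Wtap-flox 3 or Wtap-CKO 1. Rgs5 (-0.46), Kcnj8 (-0.34), Pdgfrb (-0.19) and Myh11 (-0.11) went the other way and were not called. The 7 fibroblast markers, led by Col3a1, summed to 443 to 622 FPKM in Wtap-CKO and 594 to 688 FPKM in Wtap-flox, with 2 of 7 lower. These were Lum (log2 fold change -1.02, limma adjusted p = 0.00468) and Dcn (-0.60, 0.0336). Lum kept its call in all 14 alternatives, and Dcn lost it without any 1 of the Wtap-flox libraries or Wtap-CKO 1 or 2. Tcf21 (0.21) and Col1a1 (0.01) went the other way and were not called. The 7 endothelial markers, led by Cdh5, summed to 240 to 256 FPKM in Wtap-CKO and 251 to 280 FPKM in Wtap-flox, with 1 of 7 higher and 1 lower. The higher one was Emcn (0.87, limma adjusted p = 0.00704), called in all 14 alternatives. The lower one was Kdr (-0.43, limma adjusted p = 0.0497), which lost its call whichever library was left out. The part of these cells in the Ckb, Ckm and Ckmt2 differences was not tested. In whole hearts, fewer cells of a type and less RNA per cell cannot be told apart.

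Markers of skeletal muscle, brown fat, nerve and blood had 0 called genes, but only 0 of 10, 1 of 5, 2 of 6 and 6 of 7 of them were tested. No skeletal muscle marker could be called, since all were below the filter. Of all tested genes 16.6% were called. All 10 skeletal muscle markers had a mean under 1 FPKM, with Myh4 and Myod1 at 0 in every library, and summed to 1.5 to 2.02 FPKM in Wtap-CKO and 1.55 to 2.21 FPKM in Wtap-flox. Of 5 brown fat markers Elovl3 and Adipoq were at 0 in every library, and Cidea, which made up nearly all of the summed 17.2 to 26.1 FPKM in Wtap-CKO and 15.3 to 17.3 FPKM in Wtap-flox, was not called (adjusted p = 0.0965, limma). The 6 neuron and Schwann cell markers summed to 2.56 to 3.95 FPKM in Wtap-CKO and 2.68 to 3.26 FPKM in Wtap-flox. The 7 erythroid markers summed to 1227 to 2208 FPKM in Wtap-CKO and 661 to 2173 FPKM in Wtap-flox, with Hba-a1 highest.

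Ckmt2 (ENSMUSG00000021622, chromosome 13, 91853387 to 91876885 on the minus strand) encodes the mitochondrial kinase of heart and skeletal muscle, which sits between the mitochondrial membranes. It stood at 110, 70.7 and 81.7 FPKM in Wtap-CKO and at 184, 218 and 229 FPKM in Wtap-flox. The highest Wtap-CKO heart was far below the lowest Wtap-flox heart. The means were 87.4 ± 20.2 FPKM in Wtap-CKO and 210 ± 23.4 FPKM in Wtap-flox (SD, n = 3 each). The log2 fold change was -1.28 (SE 0.19, 95% interval -1.71 to -0.84, adjusted p = 0.00338, limma), the largest fall of the 7 genes and the 67th largest among all 12568 tested genes. The adjusted p of Ckmt2 was below 0.05 in all 14 alternative analyses, with log2 fold changes between -1.45 and -1.14 and adjusted p-values of up to 0.02. By mean FPKM it ranked 494 among protein coding genes in Wtap-CKO and 136 in Wtap-flox.

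The window before the RefSeq start of Ckmt2 (chr13:91876886-91877135, minus strand, GRCm38.p6) holds 4 E-boxes and 2 CCAAT boxes, against a median of 1 E-box per promoter window. It has no match to the half-site, TATA, MEF2 or CArG motifs.
Ckmt2: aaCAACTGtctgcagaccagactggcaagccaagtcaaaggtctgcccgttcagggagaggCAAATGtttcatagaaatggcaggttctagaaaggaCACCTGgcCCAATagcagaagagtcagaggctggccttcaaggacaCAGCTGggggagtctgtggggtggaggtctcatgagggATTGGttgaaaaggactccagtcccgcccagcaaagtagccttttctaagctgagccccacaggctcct
An antisense RNA gene, 1700119I11Rik, lies within Ckmt2 on the other strand over 613 bases. It stood at 1.83, 2.24 and 0.840 FPKM in Wtap-CKO and at 7.08, 5.90 and 6.13 FPKM in Wtap-flox. The strandedness of the libraries is not stated, so its reads and those of Ckmt2 cannot be told apart. Reads assigned to it numbered 6 to 50 per library, and those assigned to Ckmt2 1622 to 6029. The antisense gene A930016O22Rik overlaps Ckm over 3952 bases and held 30 to 55 reads per library. These counts cover only reads assigned to the antisense genes. They do not bound the reads that Ckmt2 or Ckm may have gained or lost in the overlaps.

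Ckmt1 (ENSMUSG00000000308, chromosome 2, 121357714 to 121363737), the ubiquitous mitochondrial kinase of brain, gut and other tissues, was close to undetected in these hearts. It had 2, 0 and 4 reads in Wtap-CKO and 0, 1 and 2 reads in Wtap-flox. These totals of 6 reads in Wtap-CKO and 3 in Wtap-flox do not allow a comparison, and the gene was below the level needed for testing. Nearly all mitochondrial creatine kinase RNA in both groups was therefore that of Ckmt2.

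**Figure D2:**
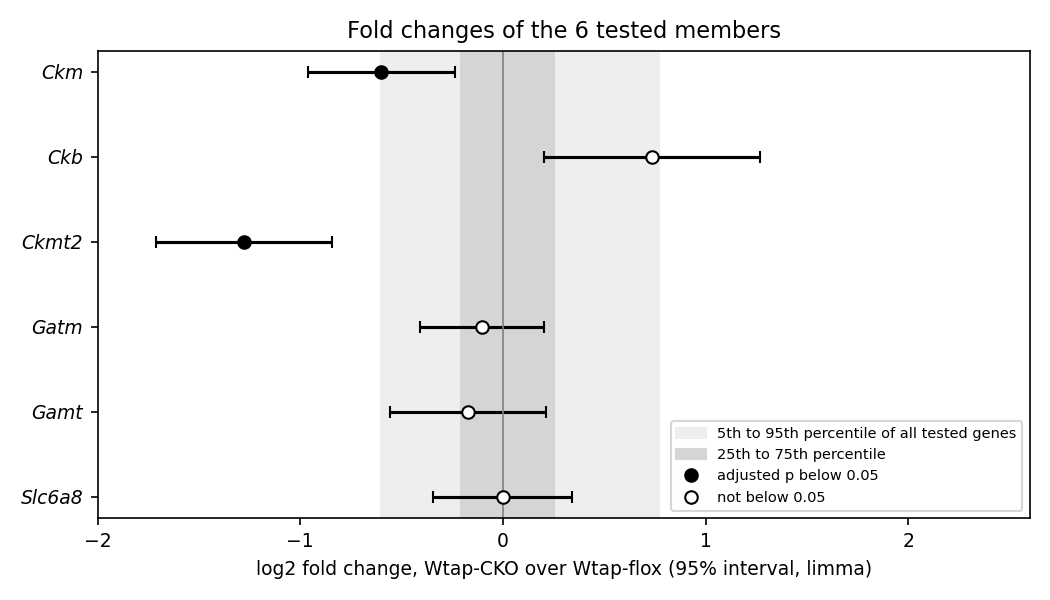
Log2 fold change of the 6 tested genes, Wtap-CKO over Wtap-flox, with 95% intervals from limma. Filled points have an adjusted p below 0.05, and the grey bands span the 5th to 95th and the 25th to 75th percentiles of all tested genes. Ckmt2 lies at -1.28 and Ckm at -0.60, Ckb at 0.74, and the intervals of Gatm, Gamt and Slc6a8 span 0.

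The balance among the kinases set the groups apart in every library. In FPKM, Ckb was above Ckmt2 in each Wtap-CKO heart, by a ratio of 1.11, 1.38 and 1.51, and below it in each Wtap-flox heart, by a ratio of 0.258, 0.424 and 0.308. Ckb made up 31.2, 30.0 and 31.7% of the cytosolic kinase RNA (Ckm plus Ckb) in Wtap-CKO, and 11.5, 17.9 and 16.3% in Wtap-flox. The Wtap-CKO libraries were close to each other on this share, at 31.0 ± 0.837%, against 15.2 ± 3.34% in Wtap-flox (SD, n = 3 each). Ckmt2 made up 21.98, 17.8 and 17.4% of the RNA of the 4 kinases in Wtap-CKO, and 30.8, 29.7 and 34.5% in Wtap-flox. Ckm stayed the most abundant kinase in each library, at 53.7 to 57.5% in Wtap-CKO and 54.8 to 61.3% in Wtap-flox, so its share overlapped between groups. These shares are descriptions over chosen genes and carry no test.

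**Figure D3:**
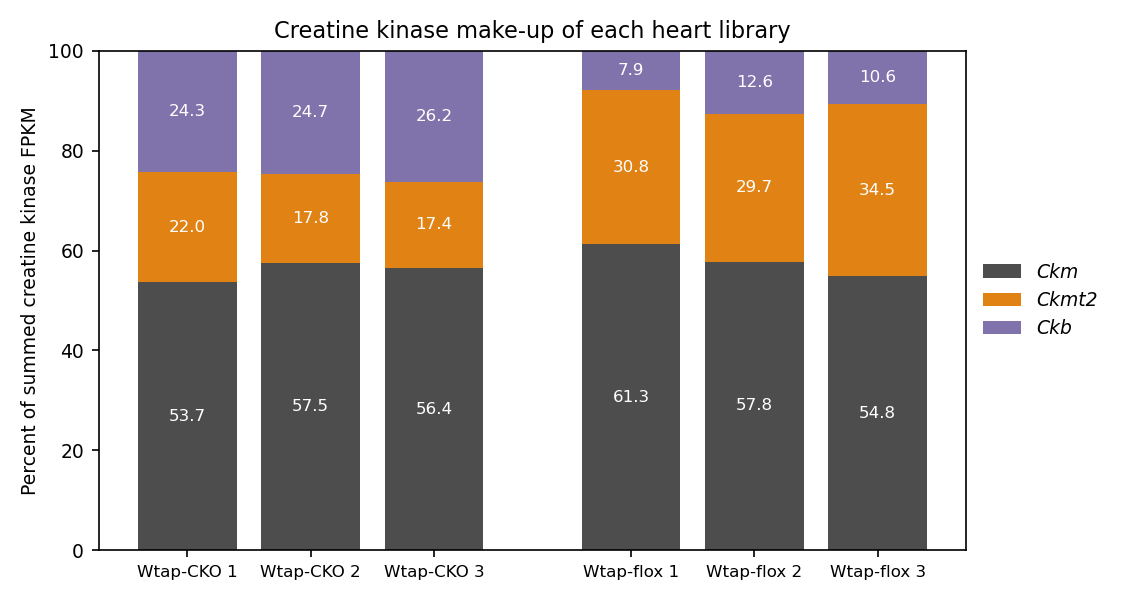
Ckm, Ckmt2 and Ckb as percent of the summed FPKM of the 4 creatine kinases in each library, with the 3 Wtap-CKO hearts on the left and the 3 Wtap-flox hearts on the right. Ckmt1 was too low to be seen. Ckb takes 24.3 to 26.2% in Wtap-CKO and 7.93 to 12.6% in Wtap-flox, and Ckmt2 takes a smaller part in Wtap-CKO.

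Summed over the 4 kinases, RNA stood at 500, 396 and 470 FPKM in Wtap-CKO and at 598, 736 and 664 FPKM in Wtap-flox. The groups did not overlap: the higher Ckb did not make up in FPKM for the lower Ckm and Ckmt2. The Ckmt2 to Ckm ratio was 0.409, 0.310 and 0.308 in Wtap-CKO and 0.502, 0.514 and 0.629 in Wtap-flox, so that Ckmt2 was lower relative to Ckm in each Wtap-CKO heart. The groups also lay apart relative to the cardiomyocyte markers, a ratio added after the data were seen. Ckmt2 was 0.591, 0.394 and 0.375% of their summed FPKM in Wtap-CKO and 1.08, 1.05 and 1.34% in Wtap-flox. Ckm was 1.22 to 1.44% in Wtap-CKO and 2.05 to 2.15% in Wtap-flox, and Ckb was 0.546 to 0.654% in Wtap-CKO and 0.278 to 0.447% in Wtap-flox. These ratios depend on the markers summed, of which Actc1 was the largest (means of 9688 FPKM in Wtap-CKO and 7634 FPKM in Wtap-flox). The log2 fold change was 0.36 for Actc1 and 0.26 for Tnnt2. Myh6, Tnni3, Myl2, Myl3, Mybpc3 and Ttn went the other way, at -0.27 to -0.13. None of the 8 markers was called, while 16.6% of all tested genes were.

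Levels set between genes depend on the length by which reads were divided. The deposited table counted Ckm over 2913 bases, Ckb over 2895 and Ckmt2 over 1486, while their coding sequences are 1146, 1146 and 1260 bases long in GENCODE vM39. Rescaled to coding length, the Ckb to Ckmt2 ratio was 2.37 to 3.23 in Wtap-CKO and 0.552 to 0.908 in Wtap-flox, and the order of these 3 genes by group mean was the same. On this scale Ckmt2 and Slc6a8 had overlapping levels in Wtap-CKO (83.3 to 130 and 82.8 to 105). The Ckmt2 share became 9.88 ± 1.48% in Wtap-CKO and 17.7 ± 1.72% in Wtap-flox (SD, n = 3 each), and the Ckm shares then no longer overlapped between groups. The Ckb share of cytosolic kinase RNA was 30.8% in Wtap-CKO and 15.1% in Wtap-flox.

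The kinases are related genes, which could let reads be assigned to the wrong copy. The coding sequences of Ckm and Ckb were 75.8% identical and those of Ckmt2 and Ckmt1 71.6%, with 65.6 to 67.2% between the cytosolic and mitochondrial pairs. The longest run of identical bases was 20 between the transcripts of Ckm and Ckb and 39 between Ckmt2 and Ckmt1, both shorter than the 150-base reads. Only the canonical transcript of each gene was compared, and whether reads went to the wrong copy was not tested. The pentamer GGACT, a common context of m6A, occurred 0 times in the coding sequence of Ckm, 2 times in those of Ckb and Ckmt2, 3 times in Ckmt1 and 1 time each in Gatm, Gamt and Slc6a8. Among 11095 tested protein coding genes 76.9% had it, with a median of 2. Downstream of the coding sequence in the same annotated transcripts it occurred 2 times in Ckm, 8 times in Gamt, 1 time each in Ckmt1 and Slc6a8, and 0 times in Ckb, Ckmt2 and Gatm. No background was taken for the downstream counts. The annotated transcripts of Gamt (5027 bases) and Ckm (4058 bases) are longer than the 1444 and 2913 bases counted in the expression table. Part of their downstream sequence may therefore lie outside what was counted. The motif values are counts of letters: methylation was not measured.

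The genes of creatine synthesis were low in both groups and did not pass. Gatm (ENSMUSG00000027199, chromosome 2, 122594467 to 122611303), which makes guanidinoacetate from arginine and glycine and is the rate-limiting step of creatine synthesis, stood at 2.10, 2.01 and 2.51 FPKM in Wtap-CKO and at 2.01, 2.54 and 2.82 FPKM in Wtap-flox. The groups overlapped, with a log2 fold change of -0.10 (95% interval -0.41 to 0.20, adjusted p = 0.642, limma). With a library left out it lay between -0.20 (without Wtap-flox 1) and -0.03 (without Wtap-flox 3), with -0.17 without Wtap-CKO 3. Gamt (ENSMUSG00000020150, chromosome 10, 80258151 to 80261012), which methylates guanidinoacetate to creatine with S-adenosylmethionine, stood at 4.25, 3.54 and 6.13 FPKM in Wtap-CKO and at 5.72, 5.27 and 4.77 FPKM in Wtap-flox. Wtap-CKO 3 was the highest of all libraries and the other Wtap-CKO hearts the lowest. The log2 fold change was -0.17 (95% interval -0.56 to 0.21, adjusted p = 0.531, limma), which was -0.35 without Wtap-CKO 3 and -0.03 without Wtap-CKO 2. Gamt rested on 79 to 156 reads per library and Gatm on 93 to 150.

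Slc6a8 (ENSMUSG00000019558, chromosome X, 73673150 to 73682502), the creatine transporter of the cell membrane, stood at 37.99, 38.4 and 30.3 FPKM in Wtap-CKO and at 32.7, 41.1 and 33.1 FPKM in Wtap-flox. The groups overlapped, with means of 35.6 ± 4.54 FPKM in Wtap-CKO and 35.6 ± 4.78 FPKM in Wtap-flox (SD, n = 3 each). Wtap-CKO 3 was the lowest of all libraries and Wtap-flox 2 the highest. The log2 fold change, -0.0015, had limits of -0.34 and 0.34 at 95% (adjusted p = 0.996, limma), on 2786 to 3405 reads per library. The sign turned without Wtap-flox 2 or Wtap-CKO 3. By FPKM the order of the members in Wtap-CKO was Ckm, Ckb, Ckmt2, Slc6a8, Gamt, Gatm and Ckmt1, and in Wtap-flox Ckm, Ckmt2, Ckb, Slc6a8, Gamt, Gatm and Ckmt1. Ckb and Ckmt2 in Wtap-CKO had neighbouring values that overlapped between hearts (97.9 to 123 FPKM and 70.7 to 110 FPKM), while Ckm was apart from them in both groups.

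Genes that feed creatine synthesis or run beside it were taken from 5 lists of 95 genes, of which 76 were tested. In the list of arginine, glycine and methyl donor supply, 4 of 17 tested genes rose and 1 fell, while 9.91% of all tested genes rose and 6.69% fell. The median log2 fold change of the list was -0.08 (0.0029 for all tested genes). Odc1, which turns ornithine into the polyamine putrescine, stood at 81.3, 77.2 and 82.3 FPKM in Wtap-CKO and at 29.1, 45.1 and 46.7 FPKM in Wtap-flox (log2 fold change 1.01, adjusted p = 0.00827, limma). It stayed past the threshold in all 14 alternatives. The arginine-making enzyme Asl (0.48) and the serine synthesis enzyme Psat1 (0.58) also rose, and the methionine synthase Mtr fell by 0.53. Their adjusted p-values were 0.0344, 0.0373 and 0.038 (limma), and each lost its call without at least 1 library. Asl lost it without any library but Wtap-CKO 2, Psat1 without any but Wtap-flox 2, and Mtr without Wtap-flox 1 or 2 or Wtap-CKO 1 or 3.

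Among the other phosphotransfer enzymes, the adenylate and nucleoside diphosphate kinases, 2 of 11 tested genes rose and 1 fell, with a median of 0.08. Of all tested genes, 9.91% rose and 6.69% fell. Guk1, which phosphorylates GMP, stood at 53.5, 43.0 and 57.2 FPKM in Wtap-CKO and at 15.5, 18.0 and 23.4 FPKM in Wtap-flox (log2 fold change 1.40, adjusted p = 0.00174, limma). Nme1, a nucleoside diphosphate kinase, stood at 12.5 ± 2.22 FPKM in Wtap-CKO and 6.53 ± 0.747 FPKM in Wtap-flox (SD, n = 3 each, 0.84, adjusted p = 0.0068, limma), and its near copy Nme2 may share reads with it. Both kept their calls in all 14 alternatives. Ak1, the cytosolic adenylate kinase that works beside creatine kinase in muscle, stood at 94.9, 84.7 and 101 FPKM in Wtap-CKO and at 140, 135 and 139 FPKM in Wtap-flox. It fell by 0.56 on the log2 scale (adjusted p = 0.026, limma), and kept the call only without Wtap-CKO 3 among the fits that left out a library.

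None of the 10 tested genes listed for mitochondrial ATP export and creatine kinase partners passed in either direction, while 16.6% of all tested genes did. None of the 10 passed in any alternative (median -0.07). The list was broad and included Slc16a12 (log2 fold change -0.07, adjusted p = 0.803, limma). Of the 10 genes, 1 had an unadjusted p under 0.05 by limma, as did 31.6% of all tested genes. This was Slc25a4, the heart's ADP/ATP carrier, at 1783 ± 322 FPKM in Wtap-CKO and 1268 ± 79.8 FPKM in Wtap-flox (SD, n = 3 each), with a log2 fold change of 0.48 (adjusted p = 0.124). The second carrier, Slc25a5, had 0.25, the M-band gene Myom2 -0.21 and the pore regulator Ppif -0.14. The lowest log2 fold change of the list was that of Myom2.

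Among the 21 tested genes of AMP sensing and AMP turnover, 2 rose and 3 fell, with a median of 0.02. The shares over all tested genes were 9.91% and 6.69%. Adssl1, the muscle enzyme that starts the return of IMP to AMP, stood at 39.6, 26.5 and 29.0 FPKM in Wtap-CKO and at 69.6, 82.1 and 73.8 FPKM in Wtap-flox. It fell by 1.24 on the log2 scale (adjusted p = 0.0024, limma) and kept the call in all 14 alternatives. Of the beta subunits of AMP-activated protein kinase, Prkab2 rose by 0.73 (13.6 ± 1.36 FPKM in Wtap-CKO, 7.78 ± 0.915 FPKM in Wtap-flox, adjusted p = 0.00706) and Prkab1 fell by 0.47 (11.2 ± 0.637 FPKM in Wtap-CKO, 15.9 ± 0.815 FPKM in Wtap-flox, adjusted p = 0.0213, limma, SD, n = 3 each). The nucleotidase Nt5c2 rose by 0.75 (adjusted p = 0.0122, limma). The AMP deaminase Ampd3, named because the count was small, fell by 0.45 (adjusted p = 0.0239, limma). Prkab1 kept its call only without Wtap-CKO 3 among the fits that left out a library, and Ampd3 lost it without any 1 of the Wtap-flox libraries or Wtap-CKO 1.

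None of 17 tested regulators known for muscle creatine kinase and energy genes passed (median -0.11), while 16.6% of all tested genes did. Of the 17, 4 (23.5%) had an unadjusted p under 0.05 by limma, a smaller share than the 31.6% of all tested genes. These were the coactivator Myocd (log2 fold change 0.85, adjusted p = 0.0704), the MEF2 factors Mef2a (-0.48, adjusted p = 0.0734) and Mef2c (-0.41, adjusted p = 0.0834) and the oestrogen-related receptor Esrra (-0.35, adjusted p = 0.122). The groups did not overlap in these 4 and overlapped in the other 13, against 37.1% not overlapping among all tested genes. Over the alternatives 0 to 1 were called higher and 0 to 4 lower, with 4 lower without Wtap-CKO 2, 3 lower with TPM scaling, and 1 higher and 2 lower with limma-voom.

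**Figure D4:**
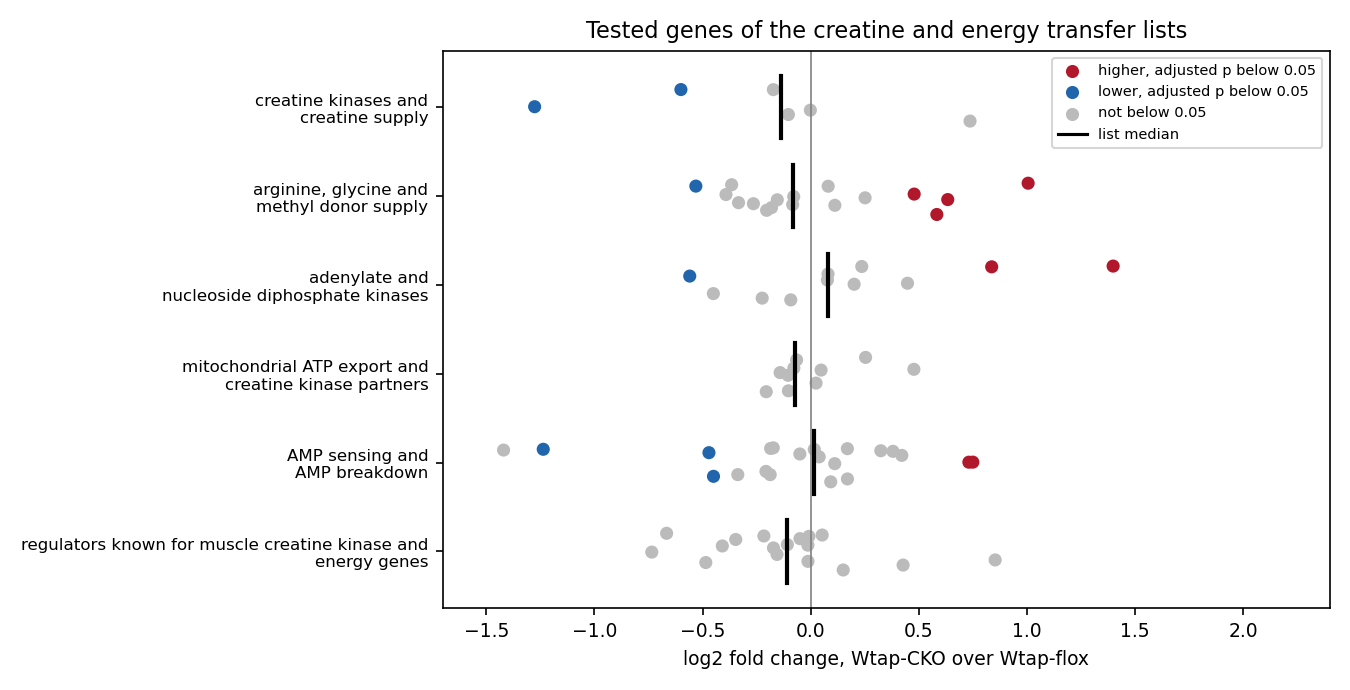
Log2 fold change (Wtap-CKO over Wtap-flox) of each tested gene in the creatine group and the 5 wider lists. Red points rose and blue points fell at an adjusted p below 0.05, grey points did not pass, and black lines are list medians. The medians of the 5 wider lists lie between -0.11 and 0.08, and the largest called changes are Guk1 at 1.40 and Ckmt2 at -1.28.

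Over the 6 libraries, the protein coding genes of at least 5 FPKM most like Ckmt2 in log2 level were Ap3s2, Adssl1 and Uqcc1 (Pearson r of 0.997, 0.993 and 0.990). Those most like Ckm were Mmab, Cc2d1b and Dhx16 (0.99996, 0.985 and 0.985), and those most like Ckb were Rnf115, Mrm2 and Lap3 (0.993, 0.991 and 0.988). For Slc6a8 they were Bag3 and Ap1b1 (0.986 and 0.972). For Gamt they were Zfp692, Mterf3 and Rgl2 (0.996, 0.982 and 0.978), and for Gatm Snrnp25, Mrps9 and Cks2 (0.992, 0.989 and 0.988). With 6 points, each picked from 6980 or 6981 genes, such values describe these libraries only.

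**Figure D5:**
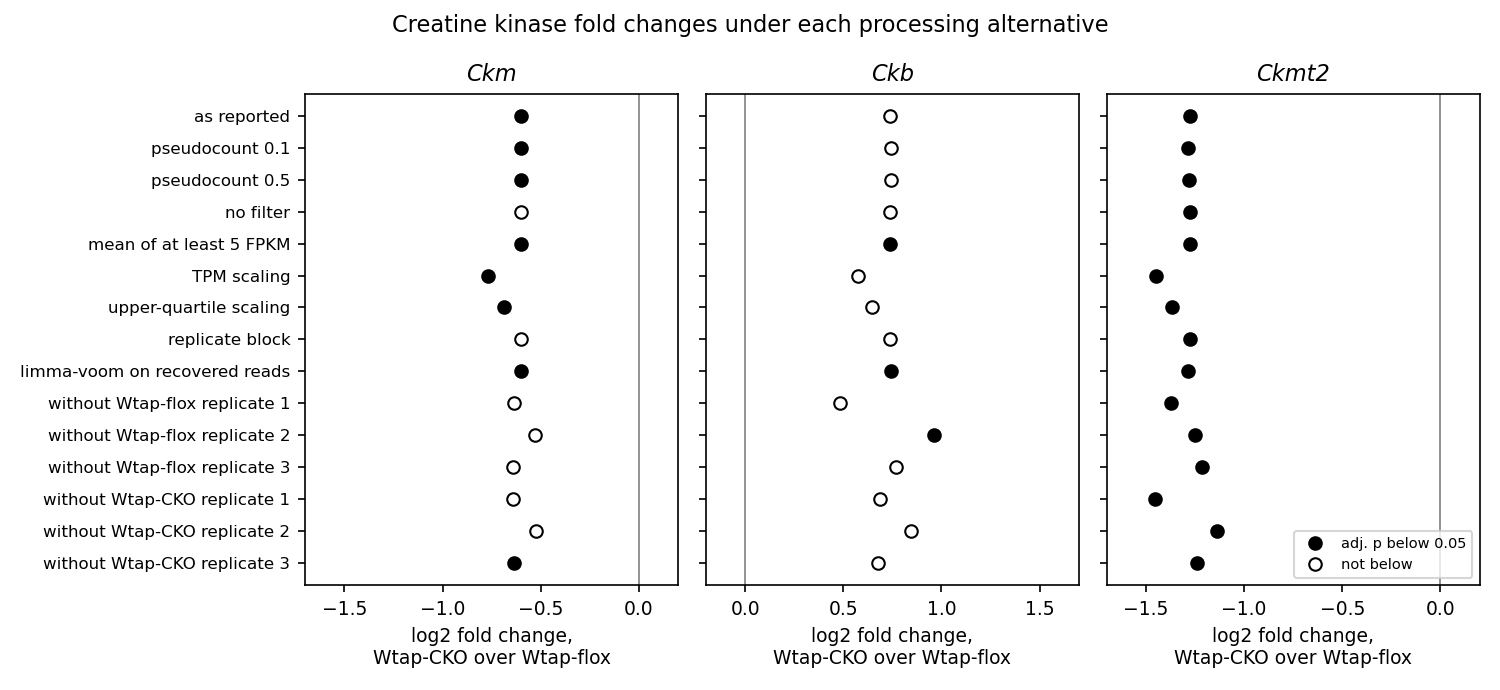
Log2 fold change of Ckm, Ckb and Ckmt2 (Wtap-CKO over Wtap-flox) as reported and under each of 14 alternatives. Filled points have an adjusted p below 0.05. Ckmt2 is filled throughout at -1.45 to -1.14, Ckm lies at -0.77 to -0.52 and Ckb at 0.48 to 0.96, filled in part.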

How the data were processed

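Polyadenylated RNA of 6 whole hearts was read from both ends at 150 bases. Per the submitters' processing notes, the tools were CASAVA, HISAT2 2.0.5, featureCounts 1.5.0-p3 and DESeq2 1.20.0. The authors deposited FPKM per gene and library. GRCm39 is the build named there, yet 94.7% of 20870 protein coding genes lay within 1000 bases of their GRCm38.p6 place, against 3.36% of 21728 in GRCm39, so coordinates are given as GRCm38. Strandedness is not given in the sources used here. Whole reads could be recovered from the FPKM and gene lengths for 100% of values (within 0.01 of a whole number).

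The 12568 genes averaging 1 FPKM or more were fitted with limma 3.58.1 in R 4.3.3 on log2(FPKM + 1), with trend and robust moderation, a pseudocount that understates changes of low genes. Fold changes are Wtap-CKO over Wtap-flox. Tested on simulated data, the fit recovered nearly all of the larger changes and part of the smaller ones. The share of false calls there was clearly above the nominal threshold. The simulation changed few genes and gave every gene the same dispersion (spread beyond counting error), unlike the data. Its false-call share therefore does not give that of the real calls. Calls close to the threshold are less sure, such as that of Ckm, which most fits with a library left out did not keep. Python 3.11.15 with Biopython 1.88 gave shares, transcript features (GENCODE vM39) and promoter matches (RefSeq, GRCm38.p6; 6 of the 7 members had an entry). Members, lists and tests were chosen with earlier results of these data known. The text names all members, Wtap, up to 4 tested genes per list by adjusted p with the first of the opposite direction, the 3 genes most like each tested member (protein coding, mean of 5 FPKM or more, by Pearson r), and the highest marker of each cell type. Other named genes were chosen after their values were seen. A few genes that this rule would name are not reported here, though list counts include them.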

Additional observations from a re-analysis of the deposited data

How the results depend on the processing

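Ckmt2 kept its direction and call in all 14 alternatives, and no alternative called Gatm, Gamt or Slc6a8. With TPM scaling Gatm had -0.27, Gamt -0.35 and Slc6a8 -0.17. Gatm and Gamt were not tested in the stricter filter of 5 FPKM, and Ckmt1 is left out because of its few reads. Ckm had adjusted p = 0.0699 without a filter and 0.0852 with a replicate block (log2 fold change -0.60 in both), and with a library left out ranged from -0.64 to -0.52. Ckb had 0.74 and was called in 3 of 14 alternatives: with genes under 5 FPKM dropped, with limma-voom (0.74) and without Wtap-flox 2. Its log2 fold change ranged from 0.48 to 0.96 with a library left out. Slc6a8 ranged from -0.059 to 0.11 with a library left out, turning to 0.10 without Wtap-flox 2 and 0.11 without Wtap-CKO 3. TPM scaling moved the median of all genes by -0.15, and Ckm, Ckb and Ckmt2 then had -0.77, 0.58 and -1.45.

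Over all genes 2086 were called, 1245 higher and 841 lower (59.7% higher). Without a filter there were 1206, 723 and 483, and with genes under 5 FPKM dropped 471 were lower (67.8% higher). TPM scaling gave 796 and 1584 (33.4% higher), and upper-quartile scaling gave 45.4% higher. With a library left out the counts were 1195 to 2012, 709 to 1194 and 428 to 818. The totals were 1251, 1195 and 1277 without Wtap-flox 1, 2 and 3, and 1195 without Wtap-CKO 1. Of the wider lists 8 genes rose and 5 fell. These were 5 and 2 without a filter, while 10 fell with TPM scaling, 9 with upper-quartile scaling, 3 with the replicate block and 10 with limma-voom, and 5 to 8 rose and 1 to 7 fell with a library left out (5 rose without Wtap-flox 3, and 1 fell when Wtap-CKO 1 or the first or second Wtap-flox heart was dropped). The Ckmt2 share differed by -12.6 percentage points (-14.0 to -11.2 with a library left out), and by -7.83 on coding length. The Ckmt2 to Ckm ratio differed by -0.206 (-0.239 to -0.165), and by -0.0955 on coding length. The causes were not tested, apart from the fewer samples or the other genes tested in a fit. Same-numbered libraries of the groups did not deviate together (correlations of -0.22, -0.08 and -0.08). With deviations taken within groups of 3 libraries, these values cannot show whether the hearts were paired. A replicate block gave 1673 calls.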
